A study of Mus musculus with 6 samples.

Results

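The 40 genes described here are interferon-induced antiviral genes, the transcription factors that control them, interferon-inducible GTPases, and genes that prepare peptides for MHC class I. They were taken by symbol from a list, with the condition of at least 10 counts summed over the 6 libraries, and all 40 listed genes met it, of 23284 genes counted. RNA came from intestine (jejunum and ileum) of male mice aged 8 weeks, in 3 wild-type (WT) libraries and 3 libraries from mice without SHP (SHP-KO), the small heterodimer partner encoded by Nr0b2. Both groups were fasted overnight and then refed for 6 h. The strain, the allele and the cells in which it is deleted are not stated in the sources used here. The labels also leave unsaid whether each library is a separate animal, and the p-values then describe the spread among libraries, which may be technical only.

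Interferons are secreted by cells that detect viral nucleic acid. Type I and type III interferons act through receptors that activate a complex that includes STAT2 and IRF9, whereas interferon-gamma acts in large part through IRF1, and both routes raise antiviral genes and the class I machinery. In the gut, type III interferon acts chiefly on epithelial cells, and class I molecules on those cells present peptides made by the proteasome to intraepithelial CD8 T cells.

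Total counts ran from 7956528 to 13511800 per library. Nr0b2 counts were 31, 14 and 23 for WT replicates 1 to 3, against 1, 0 and 0 for those of SHP-KO. All 10 enterocyte markers passed the filter, with summed levels of 77928 to 80353 CPM (counts per 1000000 counted reads) for WT and 74317 to 75542 for SHP-KO. Within that list, 3 markers named after their values were seen moved far: Fabp6, a bile acid binding protein of the ileum, went from 10792 ± 252 to 144 ± 4.67 CPM (log2 -6.22), Lct, the lactase of the upper small intestine, from 441 ± 16.0 to 2335 ± 50.7 (log2 2.41), and Sis, the sucrase-isomaltase, from 3753 ± 3.03 to 1592 ± 33.0 (log2 -1.24). The labels do not give the shares of jejunum and ileum in a library. Markers of other cell types differed too. All 12 B cell markers were called lower (summed 125 to 132 CPM in WT, 6.87 to 8.48 in SHP-KO). Cr2, Fcer2a and Faim3 were at 0 in SHP-KO and could be tested only because they were high in WT. The median B cell marker had 3.61 CPM per kilobase of exon in WT and 0.047 in SHP-KO, so the falls of this list are given as a description. Among T and NK cell markers 10 of 13 tested rose and 1 fell (summed 54.8 to 57.4 CPM in WT, 93.7 to 102 in SHP-KO). Of 11 tested macrophage and dendritic cell markers 3 rose and 4 fell (summed 123 to 124 against 68.2 to 70.5 CPM), and 8 of 8 smooth muscle markers rose (summed 229 to 236 against 1074 to 1124 CPM). Over all tested genes 35.2% were called higher and 35.4% lower. In bulk tissue, a change in the number of cells of a type and a change in RNA per cell cannot be told apart, and the part of these cell types and of the gut segments in the results that follow was not tested.

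Most of the gene group was higher in SHP-KO, and the size of the rise differed widely from gene to gene. Of the 40 genes 38 had enough counts to be tested, and 25 of them rose, 9 fell and 4 did not pass. Over all 12106 tested genes 35.2% were called higher and 35.4% lower by the same rule (adjusted p under 0.05 in edgeR's quasi-likelihood test). In either direction 34 of the 38 were called, beside 70.6% of all tested genes. SHP-KO libraries were all above WT for 26 members and all below for 7, beside 35.9% and 36.1% of all tested genes. The median log2 fold change, SHP-KO minus WT, was 0.43 over the 38 genes and -0.01 over all tested genes. These calls rest on a small spread between libraries, an estimated common coefficient of variation (CV) of 0.030. With a CV of 0.2 assumed instead (edgeR exact test), 14 of the 38 rose and 2 fell, beside 17.9% and 15.5% of all tested genes (33.4% in either direction). Oas2 is among the 25, the 26 and the 14. It met the count filter in 1 of 3 WT libraries but in 3 of 3 SHP-KO libraries. Without it 24 of 37 rose and 9 fell, and 25 lay wholly above WT and 7 wholly below. With the assumed CV 13 then rose and 2 fell.

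**Figure D1:**
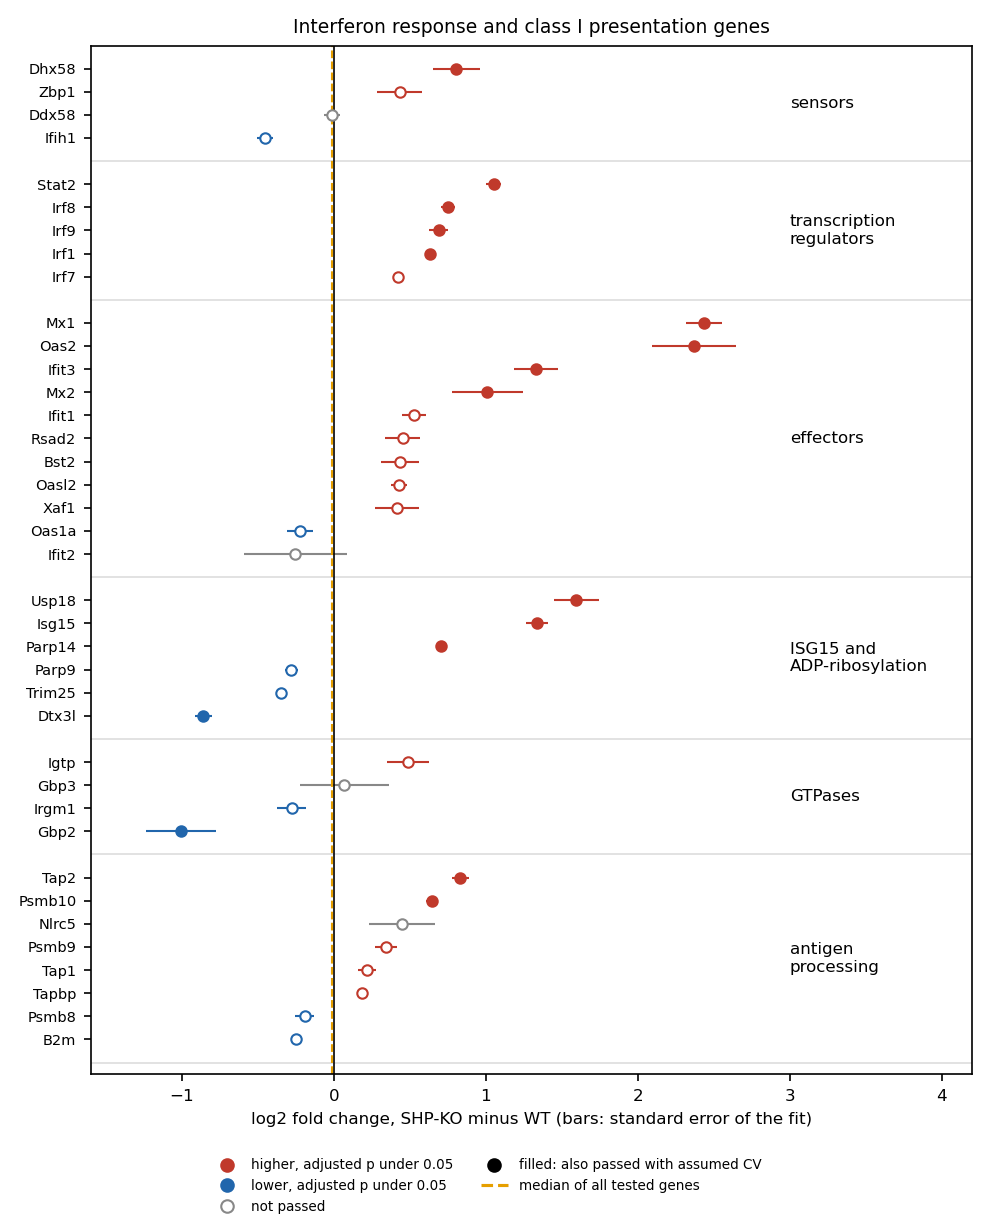
Log2 fold changes (SHP-KO minus WT, horizontal axis) of the 38 tested genes by role, with standard errors of the fit as bars. Red points were called higher, blue lower and grey did not pass; filled points also passed with the assumed CV of 0.2, and the dashed line is the median of all tested genes, at -0.01.

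The cytosolic RNA sensors did not move together. Dhx58, which encodes LGP2, a regulator of the other sensors, had 4.24, 5.35 and 5.59 CPM (WT replicates 1 to 3) against 7.64, 9.08 and 9.63 (SHP-KO replicates 1 to 3). Every SHP-KO library was above every WT library, and the rise was 1.75-fold (log2 0.81, SE 0.15, adjusted p 2.9e-06, edgeR). Ifih1, the sensor MDA5 for long double-stranded RNA, stood at 80.2, 82.3 and 88.4 CPM across WT and 61.3, 59.5 and 62.1 across SHP-KO. These groups did not overlap either, and Ifih1 fell by 0.46 on the log2 scale (SE 0.052, adjusted p 8.6e-13, edgeR). Ddx58, the sensor RIG-I for RNA with a free triphosphate end, had 69.3 ± 2.37 CPM for WT and 68.6 ± 4.04 for SHP-KO (SD, n = 3), overlapping groups with a log2 fold change of -0.01. Zbp1, a sensor of Z-form nucleic acid that can trigger cell death, rose by log2 0.43, a call that was lost without SHP-KO replicate 2 (log2 0.31, adjusted p 0.10, edgeR). Of these, Dhx58 alone passed with the assumed CV.

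Around the sensors the adaptor Mavs, on which RIG-I and MDA5 converge, rose 1.44-fold, and Irf3, the factor that it activates, rose 1.49-fold. Tlr3, the endosomal receptor for double-stranded RNA, fell by 0.92 on the log2 scale, and Irf5, a factor of myeloid and B cells, fell by 1.48. In a list of sensing adaptors and kinases 5 of 16 tested genes rose, 6 fell and 5 did not pass (median log2 fold change -0.04), shares close to those of all tested genes (35.2% higher, 35.4% lower). The falls of Tlr3 and Irf5 passed with the assumed CV, and the rises of Mavs and Irf3 did not (adjusted p 0.081 and 0.053, edgeR exact test).

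Interferon transcripts themselves were at the limit of detection. Of 19 interferon genes in the count files 15 had no count in any library, and none had more than 3 counts over the 6 libraries. Ifng, the type II interferon, had 1 count in WT and 2 in SHP-KO. A count of 0 over the 3 libraries of a group allows up to 0.078 CPM for WT and 0.12 CPM for SHP-KO, counting error only. A difference in these ligands was therefore not detectable at this depth.

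The interferon receptor chains named here differed in direction. The 2 chains of the interferon-gamma receptor, Ifngr1 and Ifngr2, fell by 0.78 and 0.41 on the log2 scale, Ifngr1 from 267 ± 7.93 to 156 ± 4.76 CPM (SD, n = 3). Jak2, the kinase bound to Ifngr2, fell by 0.48. In the other direction Ifnar2, a chain of the type I receptor, rose by log2 0.79, and Il28ra, the chain that binds type III interferon, rose from 39.3 ± 1.43 to 66.7 ± 2.02 CPM (log2 0.76). Ifnar2 and Il28ra were named after their values were seen. Other chains of the type I and type III receptors are not described here, so these chains do not stand for whole receptors. Socs3, an inhibitor of cytokine signalling through JAK kinases, stood at 42.3, 39.7 and 42.4 CPM across WT and 200.4, 199.9 and 201 across SHP-KO, 4.83-fold higher. Of 17 tested genes here 8 rose, 7 fell and 2 did not pass, beside 35.2% higher and 35.4% lower over all tested genes. With the assumed CV 3 (Socs3, Ifnar2 and Il28ra) rose and 1 (Ifngr1) fell, beside 17.9% and 15.5% of all tested genes.

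All 5 transcription regulators rose, beside 35.2% of all tested genes called higher. With the assumed CV 4 of the 5 rose, beside 17.9%. Stat2, the subunit that gives the interferon-activated complex its activation domain, had 55.9, 53.8 and 54.8 CPM (WT replicates 1 to 3) against 109.7, 121 and 110.3 (SHP-KO replicates 1 to 3). SHP-KO libraries lay at about double the WT level with no overlap, log2 1.05 (SE 0.049, adjusted p 2.6e-34, edgeR). Irf9, the DNA-binding subunit of that complex, stood at 35.3, 37.1 and 35.8 CPM across WT and 59.7, 59.9 and 54.7 across SHP-KO, a rise of log2 0.69 (SE 0.064).

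Irf1, a factor that drives class I and many interferon-gamma genes, stood at 136, 138 and 140.4 CPM across WT and 219, 204 and 221 across SHP-KO. Its groups were well apart, and the rise was 1.55-fold (log2 0.63, SE 0.037). Irf7, which amplifies type I interferon production, rose 1.34-fold to 219.6 ± 3.30 CPM, the 1 regulator that did not pass with the assumed CV (adjusted p 0.17, edgeR exact test). Irf8, a lineage factor of myeloid cells, dendritic cells and B cells, stood at 70.1, 67.2 and 65.8 CPM across WT and 113, 116 and 112 across SHP-KO. It rose 1.68-fold. Summed B cell markers were at 6.87 to 8.48 CPM in SHP-KO against 125 to 132 in WT. The summed macrophage and dendritic cell markers were also lower, but the list did not fall as a whole. With a median log2 fold change of -0.11, 3 of 11 tested were called higher and 4 lower, beside 35.2% and 35.4% of all tested genes. Markers of plasmacytoid dendritic cells, Bst2 included, summed to 47.1 to 48.2 CPM in SHP-KO and 41.2 to 46.0 in WT. Of 5 tested, 2 rose and 1 fell, beside the same shares of all tested genes. The part of these cells in the rise of Irf8 was not tested. Per kilobase of exon, Irf7 was the most abundant regulator, at 88.2 CPM per kb in WT, followed by Irf1 at 41.1 and Irf8 at 23.9.

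An antiviral effector, Mx1, had the largest rise of the group, and the median log2 fold change of the 11 tested effectors was 0.45. Apart from Mx1 and Oas2, no effector rose as much as Usp18 (log2 1.59), a gene of another role. Mx1 (mm9, 97668642 to 97684513 on chromosome 16), a dynamin-like GTPase that blocks influenza viruses, had 4.97, 3.95 and 4.76 CPM (WT replicates 1 to 3) against 26.3, 25.6 and 22.7 (SHP-KO replicates 1 to 3). Levels in SHP-KO were thus far above WT in every library, 5.40-fold by the fit (log2 2.43, SE 0.12, adjusted p 5.7e-33, edgeR). Mx2, its paralogue, stood at 2.85, 1.84 and 1.44 CPM across WT and 4.07, 3.61 and 4.81 across SHP-KO, 2.01-fold higher (log2 1.01, SE 0.24). The 2 genes are paralogues, and reads that align to both were not counted.

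Oligoadenylate synthetases make the messenger that activates RNase L, and their genes differed in direction. Oas2 stood at 1.17, 0.789 and 0.756 CPM across WT and 3.56, 6.56 and 4.01 across SHP-KO, with SHP-KO replicate 2 well above the other two. Counts were 16, 9 and 10 in WT, and 1 of 3 WT libraries but 3 of 3 SHP-KO libraries met the count filter. Oas2 could thus be tested only because it was high in SHP-KO, so its 5.17-fold difference (log2 2.37, SE 0.28) is given as a description. Oas1a stood at 21.5, 23.8 and 24.3 CPM across WT and 19.6, 19.4 and 20.5 across SHP-KO, a narrow gap between groups that gave a fall of 0.22 on the log2 scale (adjusted p 0.017, edgeR). That call was lost in DESeq2 (adjusted p 0.085), without WT replicate 3 (0.071) and without SHP-KO replicate 2 (0.054). Oasl2, an oligoadenylate synthetase-like gene, rose 1.35-fold to 80.2 ± 0.71 CPM.

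Among the Ifit genes, Ifit3 rose most. Its levels were 4.75, 4.47 and 4.08 CPM in WT and 10.8, 10.8 and 11.8 in SHP-KO. All SHP-KO libraries were above all WT libraries, 2.51-fold (log2 1.33, SE 0.15, adjusted p 1.9e-13, edgeR). Ifit1 rose 1.44-fold, from 20.7 ± 1.34 to 29.7 ± 1.69 CPM (SD, n = 3). Ifit2, close to them on chromosome 19, stayed low at 1.17, 1.23 and 2.04 CPM in WT and 1.02, 1.09 and 1.60 in SHP-KO, overlapping groups that did not pass (log2 -0.26, SE 0.34, adjusted p 0.51, edgeR).

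The remaining effectors rose by similar, small amounts. Rsad2, whose product viperin makes a chain-terminating nucleotide, rose 1.37-fold, from 9.96 ± 0.21 to 13.6 ± 1.05 CPM. Bst2, the tether that holds budding virus at the cell surface, rose 1.35-fold, from 8.49 ± 0.43 to 11.5 ± 0.3 CPM. Xaf1, a proapoptotic interferon target, had a log2 fold change of 0.42, which fell below the threshold in DESeq2 (adjusted p 0.055), without WT replicate 1 (log2 0.29, adjusted p 0.087, edgeR) and without SHP-KO replicate 3 (log2 0.24, adjusted p 0.19, edgeR). Ifi44 had 5, 7 and 4 counts in WT and 3, 10 and 9 in SHP-KO, too few to be tested. In all, 9 of 11 tested effectors rose, 1 (Oas1a) fell and 1 (Ifit2) did not pass, beside 35.2% of all tested genes called higher. With the assumed CV 4 (Mx1, Mx2, Oas2 and Ifit3) rose, beside 17.9%. Without Oas2 the counts were 8 of 10, and 3 with the assumed CV.

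**Figure D2:**
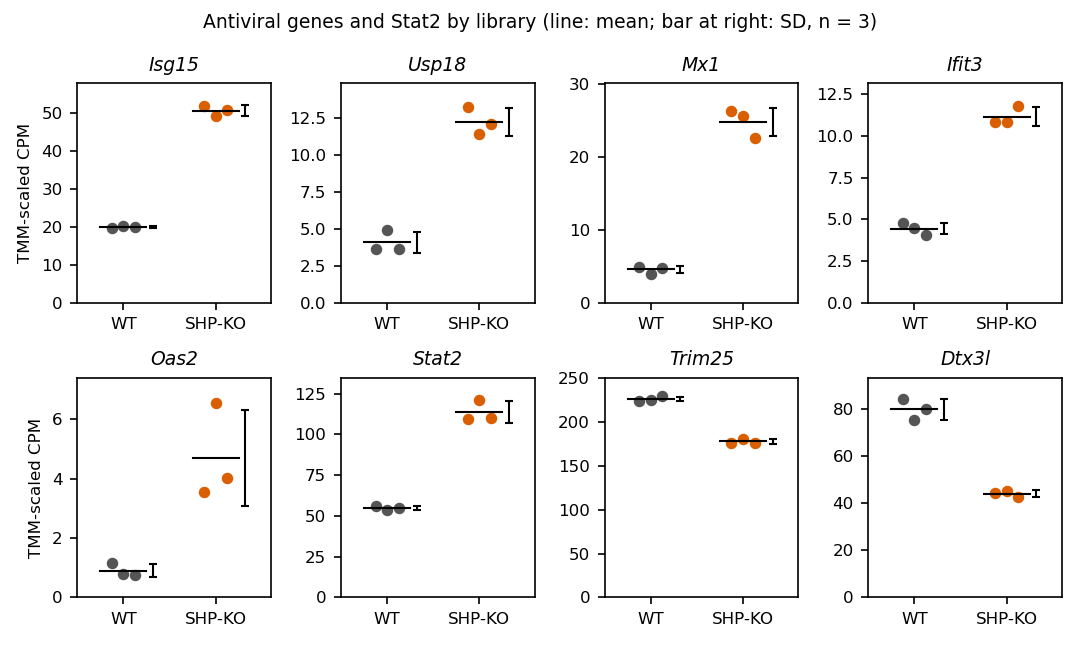
TMM-scaled CPM (vertical axis, from 0) of 7 antiviral genes and Stat2 in each of 3 WT and 3 SHP-KO libraries; lines are means and bars SD. Isg15, Usp18, Mx1, Ifit3, Oas2 and Stat2 are higher in every SHP-KO library than in every WT library, and Trim25 and Dtx3l are lower in every one.

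Isg15 and Usp18 rose, while the ubiquitin ligase genes Trim25 and Dtx3l fell. Isg15 (mm9, 155573533 to 155574927 on chromosome 4), a ubiquitin-like protein that is attached to newly made proteins, had 19.8, 20.3 and 20.1 CPM (WT replicates 1 to 3) against 52.1, 49.2 and 50.8 (SHP-KO replicates 1 to 3). The libraries of each genotype were tight, and the rise was 2.52-fold (log2 1.33, SE 0.072, adjusted p 2.1e-30, edgeR). Usp18, the protease that removes ISG15 and that also dampens the type I receptor, stood at 3.65, 4.91 and 3.63 CPM across WT and 13.2, 11.4 and 12.0 across SHP-KO, 3.02-fold higher (log2 1.59, SE 0.15). Outside the group, the enzymes that load ISG15 were higher too: Uba7, the activating enzyme, rose 2.74-fold, and Ube2l6, the conjugating enzyme, named after its value was seen, rose 1.53-fold. Trim25, the ubiquitin ligase that assists RIG-I, stood at 224, 226 and 229 CPM across WT and 177, 181 and 176 across SHP-KO and fell by 0.35 on the log2 scale (SE 0.035, adjusted p 3.4e-15, edgeR). The fall of Trim25 did not pass with the assumed CV (adjusted p 0.28, edgeR exact test), whereas the rises of Isg15, Usp18, Uba7 and Ube2l6 did.

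Neighbouring genes on chromosome 16, Parp14, Dtx3l and Parp9, gave a split within one locus. Dtx3l, a ubiquitin ligase that works as a complex with PARP9, stood at 84.4, 75.4 and 79.9 CPM across WT and 44.3, 45.4 and 42.5 across SHP-KO. Its groups were far apart, a fall of 0.86 on the log2 scale (SE 0.057, adjusted p 1.8e-24, edgeR). Parp9, its ADP-ribosyltransferase partner, fell less, from 119.8 ± 1.09 to 98.6 ± 1.93 CPM (log2 -0.28), and not with the assumed CV (adjusted p 0.4, edgeR exact test). Parp14, an ADP-ribosyltransferase of macrophage and interferon responses, stood at 121, 119 and 122 CPM across WT and 200.2, 198 and 192 across SHP-KO and rose 1.63-fold (log2 0.71, SE 0.037). Dtx3l and Parp9 lie on opposite strands and share 334 bases of exon, 6.45% of the length of Dtx3l and 9.37% of that of Parp9, where unstranded reads cannot be assigned to either.

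Interferon-inducible GTPases, which attack the vacuoles of intracellular microbes, were low and mixed. Gbp2 stood at 3.65, 5.09 and 4.76 CPM across WT and 2.67, 2.41 and 1.60 across SHP-KO, groups that did not overlap, and fell by 1.01 on the log2 scale (SE 0.23, adjusted p 6.3e-05, edgeR). Igtp stood at 8.47, 6.66 and 7.63 CPM across WT and 13.4, 10.5 and 8.48 across SHP-KO, where the lowest SHP-KO library was just above the highest WT library. Its rise of log2 0.49 was lost without SHP-KO replicate 1 (log2 0.31, adjusted p 0.063, edgeR). Irgm1, which protects host membranes from the other GTPases, stood at 21.3, 17.7 and 20.9 CPM across WT and 16.3, 18.5 and 14.8 across SHP-KO, overlapping groups. It was called lower (log2 -0.28, adjusted p 0.0081, edgeR), but not in DESeq2 (adjusted p 0.061), nor with SHP-KO replicate 3 left out (adjusted p 0.096, edgeR). Gbp3 did not pass (log2 0.07, adjusted p 0.84, edgeR), and Iigp1 had 4, 6 and 8 counts in WT and 5, 1 and 4 in SHP-KO, too few to be tested. With the assumed CV the fall of Gbp2 was the 1 call among the 4 tested. Of 9 other tested GTPases of these families 5 rose, 1 fell and 3 did not pass, beside 35.2% higher and 35.4% lower over all tested genes. Ifi47 rose by log2 0.54, Gbp8 by 0.76 and Gm12250 by 0.82. The call of Gbp8 was lost without SHP-KO replicate 2 (adjusted p 0.098, edgeR), and that of Gm12250 without WT replicate 2 (0.053) or SHP-KO replicate 3 (0.064). Gbp1 had 0.146, 0.438 and 0.378 CPM in WT and 2.29, 2.30 and 2.29 in SHP-KO; it too met the filter only through SHP-KO, so these values are a description although it is counted among the 5.

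Of 51 tested interferon-induced genes outside the 40, 39.2% (20) rose, 23.5% (12) fell and 19 did not pass, beside 35.2% and 35.4% of all tested genes (median log2 fold change 0.12). The share that rose was close to that of all genes. Cxcl11, a chemokine for T cells that carry CXCR3, rose 4.90-fold, from 3.20 ± 0.15 to 15.7 ± 1.01 CPM, and Oasl1 rose 1.67-fold. Cmpk2, a mitochondrial nucleotide kinase that adjoins Rsad2 in the genome, fell by 0.84 on the log2 scale, in contrast to the rise of Rsad2. Under the assumed CV 11 rose and 4 fell, beside 17.9% and 15.5% of all tested genes.

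Promoter sequences show where the DNA element of the interferon-activated complex occurs near these start sites, and 4 are printed because they come from members that moved in opposite directions. RefSeq promoter windows (GRCm38.p6, 250 bases before to 50 after the start site) were matched by symbol for 29 of the 40 genes. Each line gives the 170 bases just upstream of the start site, 5′ to 3′ on the strand of the gene, with capitals for matches to the core of the interferon-stimulated response element, GAAA, any 2 bases, GAAA, on either strand; overlapping matches run together.
Isg15: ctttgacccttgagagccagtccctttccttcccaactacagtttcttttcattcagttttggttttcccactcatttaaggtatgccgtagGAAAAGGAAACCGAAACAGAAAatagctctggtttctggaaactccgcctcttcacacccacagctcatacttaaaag
Ifit3: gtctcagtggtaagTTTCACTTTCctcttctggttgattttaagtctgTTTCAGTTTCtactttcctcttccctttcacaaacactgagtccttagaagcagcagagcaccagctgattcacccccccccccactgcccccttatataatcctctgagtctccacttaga
Gbp2: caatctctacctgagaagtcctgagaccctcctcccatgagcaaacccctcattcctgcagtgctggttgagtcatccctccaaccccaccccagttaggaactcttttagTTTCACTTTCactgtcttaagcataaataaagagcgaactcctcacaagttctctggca
B2m: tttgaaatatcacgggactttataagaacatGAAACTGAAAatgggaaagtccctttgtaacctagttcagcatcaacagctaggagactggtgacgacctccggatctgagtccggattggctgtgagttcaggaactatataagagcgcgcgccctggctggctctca
The stretches lie at chr4:156200819-156200988 (minus strand) for Isg15, chr19:34583359-34583528 (plus) for Ifit3, chr3:142620493-142620662 (plus) for Gbp2 and chr2:122147517-122147686 (plus) for B2m. Isg15 holds 3 overlapping matches, which begin 78, 72 and 66 bases before its start site. Ifit3 holds 2, at 156 and 122 bases, and Gbp2 and B2m hold 1 each, at 59 and 139 bases.

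In the whole window, a match was present in 14 of the 29 matched genes, against 3.99% of 27025 genes with a RefSeq window (any start site). By call it was in 7 of 17 matched genes that rose and in 5 of 8 that fell, so the element occurred in promoters of both directions. These shares are not a comparison of directions, because most genes without a window rose, the largest rises among them. Genes that rose and had no window were Mx1, Oas2, Usp18, Mx2, Dhx58, Zbp1, Parp14 and Tap2. Parp9, which fell, Nlrc5, which did not pass, and Iigp1, which was not tested, had none either. By role it was in 8 of 14 antiviral genes, 1 of 5 regulators (Stat2), 4 of 4 GTPases and 1 of 6 antigen processing genes (B2m). The gamma-activated sequence TTCNNNGAA, also searched on both strands and overlapping the other element where both fit, was in 7 of the 29 genes and in 9.55% of all genes with a window. These matches describe letters in a fixed window and do not show binding.

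Class I antigen processing genes also moved both ways. Of 8 tested genes 5 rose, 2 fell and 1 did not pass, beside 35.2% higher and 35.4% lower over all tested genes. Both genes of the peptide transporter rose. Tap2 (mm9, 34341424 to 34353266 on chromosome 17) had 47.8, 45.1 and 45.4 CPM (WT replicates 1 to 3) against 85.1, 81.8 and 79.6 (SHP-KO replicates 1 to 3). All SHP-KO libraries exceeded all WT libraries, 1.78-fold (log2 0.83, SE 0.055, adjusted p 1.9e-24, edgeR). Tap1, which pairs with TAP2 to carry peptides into the endoplasmic reticulum, stood at 54.4, 60.5 and 57.0 CPM across WT and 67.1, 69.5 and 62.9 across SHP-KO, a smaller rise of log2 0.22 (SE 0.057). Tapbp, the tapasin that bridges the transporter and class I, rose from 346 ± 5.62 to 394 ± 1.49 CPM (log2 0.18). Of these, Tap2 alone passed with the assumed CV (adjusted p 0.0028 for Tap2, 0.54 for Tap1 and 0.6 for Tapbp, edgeR exact test).

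The 3 immunoproteasome subunits, which replace constitutive catalytic subunits and favour peptides that fit class I, did not change alike. Psmb10 stood at 109, 112 and 110.2 CPM across WT and 178, 169 and 170.3 across SHP-KO, 1.56-fold higher with no overlap (log2 0.65, SE 0.039, adjusted p 3.8e-27, edgeR). Psmb9 stood at 24.8, 27.0 and 26.2 CPM across WT and 33.7, 32.6 and 32.5 across SHP-KO and rose by log2 0.34 (SE 0.074). Psmb8 stood at 56.6, 50.2 and 53.6 CPM across WT and 50.8, 47.3 and 42.9 across SHP-KO; the highest SHP-KO library lay above the lowest WT library. Its fall of 0.19 on the log2 scale (adjusted p 0.0052, edgeR) was lost without SHP-KO replicate 3 (log2 -0.13, adjusted p 0.087, edgeR). With the assumed CV Psmb10 was the 1 subunit that passed.

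B2m, the light chain of every class I molecule, was by far the most abundant member, at 1762 CPM per kb of exon in WT. It stood at 1516, 1514 and 1506 CPM across WT and 1261, 1308 and 1246 across SHP-KO. Every SHP-KO library was lower, a fall of 0.25 on the log2 scale (SE 0.024, adjusted p 9.2e-16, edgeR) that did not pass with the assumed CV (adjusted p 0.45, edgeR exact test). The heavy chains with which it pairs were slightly higher, H2-K1 from 2172 ± 23 to 2435 ± 34 CPM (log2 0.16) and H2-D1 from 1118 ± 22.7 to 1276 ± 9.95 CPM (log2 0.19). Both rises were smaller than the fall of B2m. Class I heavy chain genes have close copies, and reads that align to several were not counted. Nlrc5, the transactivator of class I genes, was low, at 3.21, 2.81 and 2.34 CPM in WT and 4.20, 3.28 and 4.01 in SHP-KO. Its groups did not overlap but it did not pass (log2 0.45, SE 0.22, adjusted p 0.061, edgeR), and it did pass once WT replicate 1 (adjusted p 0.039) was left out, as it did when SHP-KO replicate 2 was (0.040).

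**Figure D3:**
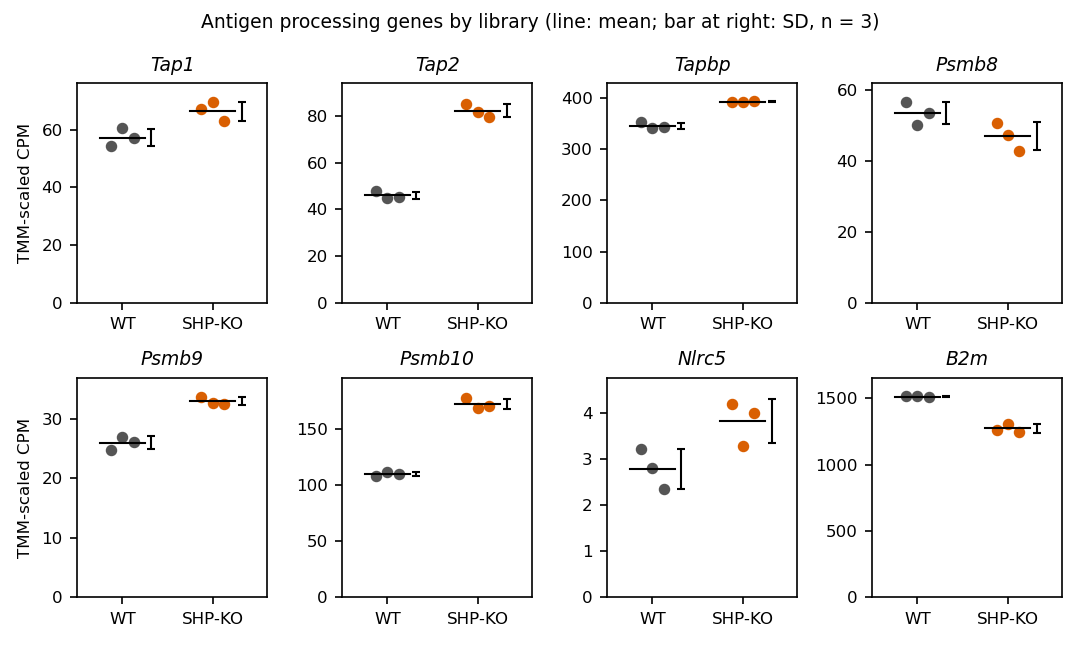
TMM-scaled CPM (vertical axis, from 0) of the 8 antigen processing genes in each of 3 WT and 3 SHP-KO libraries; lines are means and bars SD. Tap2 and Psmb10 show the widest gaps, B2m is lower in every SHP-KO library, and the groups overlap for Psmb8.

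Ratios between partner subunits within a library do not depend on scaling between libraries. The ratio of Psmb10 to Psmb7, the constitutive subunit that it replaces, in CPM per kb was 1.16, 1.10 and 1.09 (WT replicates 1 to 3) against 2.14, 2.45 and 2.26 (SHP-KO replicates 1 to 3), since Psmb7 fell (log2 -0.38) while Psmb10 rose. Psmb9 to Psmb6 was 0.235, 0.271 and 0.264 in WT and 0.282, 0.283 and 0.297 in SHP-KO. Psmb8 to Psmb5 was 1.44, 1.50 and 1.45 in WT and 1.32, 1.37 and 1.09 in SHP-KO. The immunoproteasome share by this measure was therefore higher for Psmb10 and Psmb9 and lower for Psmb8 in every SHP-KO library. B2m to H2-K1 went from 1.35, 1.34 and 1.31 in WT to 1.00, 1.04 and 0.966 in SHP-KO, and Tap1 to Tap2 from 0.962, 1.13 and 1.06 to 0.665, 0.717 and 0.667. Each of the 6 ratios computed, B2m to H2-D1 included, separated the genotypes without overlap, with an exact two-sided permutation p of 0.10, the smallest that 3 against 3 libraries can give (0.10 also after adjustment over the 6). Separation is common in these data: 35.9% of all tested genes lay wholly above and 36.1% wholly below WT.

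**Figure D4:**
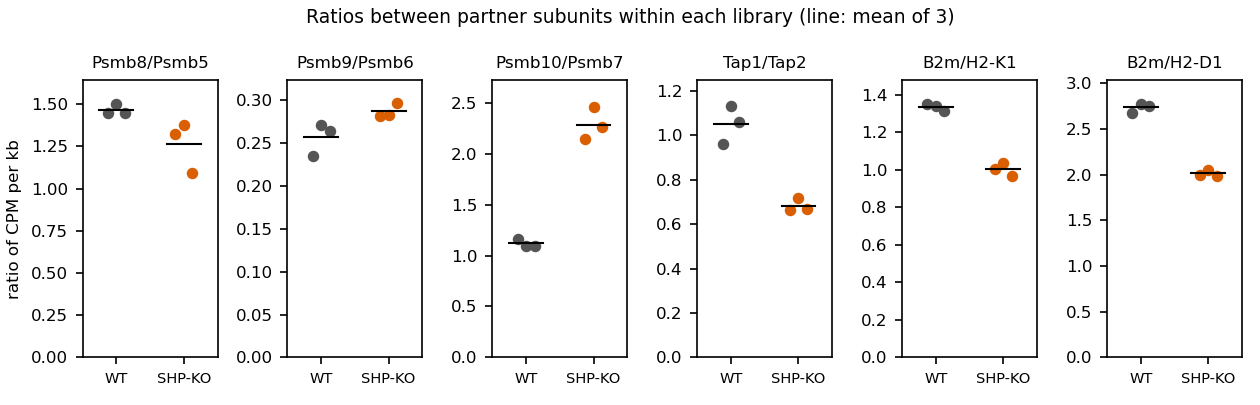
Ratios of CPM per kb between partner genes (vertical axes, from 0) in each library of WT and SHP-KO; lines are means of 3. Psmb10/Psmb7 is about 2-fold higher in SHP-KO, and B2m/H2-K1, B2m/H2-D1 and Tap1/Tap2 are lower in every SHP-KO library.

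Class I heavy chains and loading factors around the members differed in direction. Beside the counts that follow, 35.2% of all tested genes were called higher and 35.4% lower. With the assumed CV 33.4% were called in either direction. Of 18 tested class I and class I-like genes 10 rose, 4 fell and 4 did not pass, with H2-Bl 4.90-fold, H2-Q4 2.38-fold, H2-Q1 1.87-fold and H2-T3 1.31-fold higher. These genes have close copies, and their counts are uncertain because reads that align to several were not counted. Of 15 peptide loading and trimming genes 10 fell, 2 rose and 3 did not pass; Pdia3 and Canx, chaperones of class I folding, fell by 0.37 and 0.35 on the log2 scale, the peptidase Blmh fell by 1.30, and the peptidase Lap3 rose by log2 0.30. Of 15 constitutive proteasome genes 8 fell, 2 rose and 5 did not pass, Psma1, Psma6 and Psma7 by 0.36, 0.34 and 0.30, and none passed with the assumed CV. In the class II list 9 of 15 rose, 5 fell and 1 did not pass: Cd74, H2-Ab1, H2-Aa and H2-Eb1 had log2 fold changes of 2.46, 2.43, 2.09 and 2.07. The share of the class II list that fell, 33.3%, was close to that of all tested genes. Falls in that list reached further, with H2-DMb2, H2-Ob and H2-Oa, named after their values were seen, at -4.79, -4.31 and -3.17, beside the low B cell markers given above. Ciita, the class II counterpart of Nlrc5, rose from 5.55 ± 0.83 to 11.2 ± 1.87 CPM (log2 1.00).

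Antiviral genes (sensors, effectors, and the ISG15 and ADP-ribosylation genes) and antigen processing genes were set side by side. Of 21 tested antiviral genes 14 rose, 5 fell and 2 did not pass, with log2 fold changes from -0.86 to 2.43 and a median of 0.44. The 8 antigen processing genes ran from -0.25 to 0.83 with a median of 0.28. These ranges cover unequal numbers of genes, and over all tested genes the 5th to 95th percentiles were -1.32 to 1.83. Changes of at least 2-fold were called for 6 antiviral genes (Mx1, Mx2, Oas2, Ifit3, Isg15 and Usp18) of 21 and for 0 of 8 antigen processing genes, beside 20.0% of all tested genes. Mx2 was under 2-fold with no scaling factors (log2 0.97) and when every gene with a count was tested (0.95). It was also under 2-fold without WT replicate 2 (0.94), WT replicate 3 (0.79) or SHP-KO replicate 3 (0.89). Without Oas2, 13 of 20 antiviral genes rose, 5 fell and 5 changed at least 2-fold, with a median of 0.43. The share that rose was 66.7% against 62.5%, beside 35.2% of all tested genes, and 5 of 21 against 2 of 8 fell, beside 35.4%. With the assumed CV 8 of 21 antiviral genes rose and 1 (Dtx3l) fell, and 2 of 8 antigen processing genes (Tap2 and Psmb10) rose. Over all tested genes 17.9% rose and 15.5% fell by that rule. Without Oas2, 7 of 20 antiviral genes rose and 1 fell by it.

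By library, the median log2 ratio of antiviral genes to their WT mean was 0.42, 0.54 and 0.46 in SHP-KO replicates 1 to 3, and that of antigen processing genes was 0.30, 0.26 and 0.26. The difference between the medians was 0.16 in the fit and 0.12, 0.28 and 0.20 by library, a description with no test, because members are not replicates of a condition. Antigen processing genes were the more abundant: their median level was 38.0 CPM per kb in WT and 39.6 in SHP-KO, and that of antiviral genes 7.84 and 8.50.

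**Figure D5:**
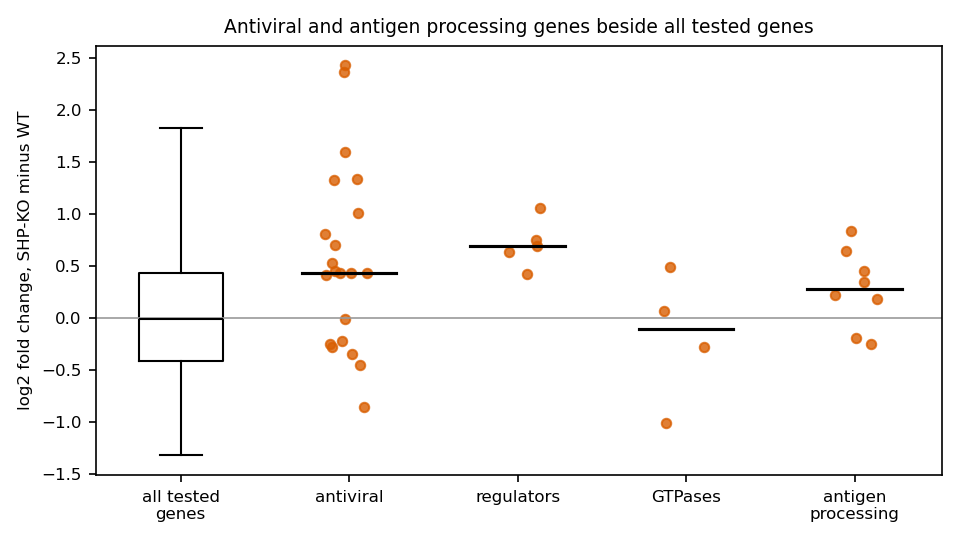
Log2 fold changes (SHP-KO minus WT, vertical axis) of all tested genes (box: quartiles and median; whiskers: 5th to 95th percentile) and of each tested member by group (points; line: median). Medians are 0.44 for antiviral genes, 0.69 for the 5 regulators, -0.10 for the 4 GTPases and 0.28 for antigen processing genes, beside -0.01 for all tested genes.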

How the data were processed

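Intestinal RNA of 3 WT and 3 SHP-KO libraries gave, per the labels' protocols, sequence reads 100 bp long. Tools in the submitters' processing notes are STAR 2.6.0c, Trimmomatic 0.38, bcl2fastq 2.17.1.14 and FastQC 0.11.5, with the build mm9 and no settings. The authors deposited raw counts per gene, which featureCounts 1.5.2 summed over exons without regard to strand, per the file headers; multiply aligned reads stayed out. Library numbers inside the file headers differ from those of the deposited files, so group and replicate follow the records that tie each file to its sample, and a mix-up of replicates within a group could not be checked. Depth was 7956528 to 13511800 counts per library. The authors' own comparison table was not used here.

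Of 23284 genes, 12106 passed edgeR's filterByExpr (minimum count 10) and were tested with edgeR 4.0.16's quasi-likelihood test (TMM scaling, robust fit, R 4.3.3), WT against SHP-KO, with Benjamini-Hochberg adjustment over all of them and a threshold of 0.05. CPM values are TMM-scaled, and values per kb divide them by exon length; errors are SD over 3 libraries or the fit's SE. The script was tested on simulated data. Alternatives used DESeq2 1.42.0, limma-voom (limma 3.58.1), other scaling and filters, an exact test with an assumed CV of 0.2, the replicate number as a block, and each library left out. Members and lists were chosen with earlier results of these data known. Every member is named, Nr0b2, H2-K1, H2-D1, Psmb5, Psmb6, Psmb7, Ifng and Ciita are named whatever their values (1 further gene of that rule is not reported here), and each pathway list gives up to 4 genes with the smallest adjusted p at a mean of at least 1 CPM; the ratios Tap1 to Tap2 and B2m to heavy chains were added after values were seen. Plots used matplotlib 3.10.9.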

Additional observations from a re-analysis of the deposited data

How the results depend on the processing

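No called member changed direction under any alternative run; of those not called, Ddx58, Gbp3 and Ifit2 changed sign when some single libraries were left out. With the assumed CV of 0.2 the count that rose went from 25 to 14 and the count that fell from 9 to 2, as over all tested genes (8543 called, 4041 with the assumed CV). Member counts here include Oas2, and without it the count that rose went from 24 to 13. Leaving out each library in turn gave 24 to 25 higher and 7 to 9 lower members, a median log2 fold change of 0.43 to 0.51 for antiviral and 0.25 to 0.30 for antigen processing genes, and a difference between them of 0.13 to 0.24. The antigen processing median was 0.24 with no scaling factors and 0.22 when every gene with a count was tested. In the same runs the antiviral median was also lower, at 0.40 and 0.38. The median shift over all genes from the main run was -0.038 and -0.060 on the log2 scale. The cause of these shifts was not tested. With the replicate number as a block, 25 rose and 9 fell and no member's call changed. Same-numbered libraries did not deviate together (r = 0.022, 0.028 and -0.0054 for replicates 1, 2 and 3), so the numbers were not taken as pairs. No scaling alternative moved the median of all genes by more than 0.038 on the log2 scale. Counts under about 10 per library, as for Ifi44, Iigp1 and the interferons, limit what could be detected.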

Other observations

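Some members that lie near each other in the genome differed in direction, and others, such as Mx1 and Mx2, did not. On chromosome 17 (mm9), Psmb9 (34319044 to 34324275) and Tap1 (34324501 to 34334170) lie 225 bases apart and are transcribed away from each other, followed by Psmb8 and Tap2 on the strand of Tap1. Their log2 fold changes were 0.34, 0.22, -0.19 and 0.83 in that order, the fall of Psmb8 being lost without SHP-KO replicate 3. On chromosome 16 Parp14 and Dtx3l, 55132 bases apart, had 0.71 and -0.86. In the Ifit cluster on chromosome 19, Ifit3 and Ifit1 had 1.33 and 0.53, while Ifit2 did not pass (-0.26, and 0.05 without WT replicate 3) and has no direction to compare. Likewise Gbp2 fell (-1.01) on chromosome 3, and Gbp3, 47450 bases away, did not pass (0.07, and -0.16 to 0.25 with single libraries left out). Whether neighbours differ more or less than other pairs was not tested.

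Chemokines that share the receptor CXCR3 also differed. Cxcl11 averaged 3.20 ± 0.15 CPM for WT and 15.7 ± 1.01 for SHP-KO (SD, n = 3). Cxcl10 averaged 1.39 ± 0.28 and 1.37 ± 0.48 CPM, a difference under the threshold (log2 -0.02, adjusted p 0.95, edgeR), and Cxcl9 had 39 counts over the 6 libraries, too few to be tested. Cxcl10 and Cxcl9 were named after their values were seen.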
